A study of Rattus norvegicus albus with 6 samples.

Results

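Dickkopf-1 (DKK-1), a secreted antagonist of the Wnt pathway delivered by adenovirus, was set against 2 small molecules, ICG-001 and FJ9, in cultured rat hepatic stellate cells. For every named gene, the log2 difference between the DKK-1 array and its own control was taken, and the mean of the corresponding differences for ICG-001 and FJ9 was subtracted. This value is called the DKK-1 contrast below: a positive contrast means that a gene stood higher after DKK-1 than after the compounds, each judged from its own control. The contrast was computed for 10025 of 14322 named genes. The other 4297 genes, with a mean level over the 6 arrays of up to 6.39 (log2), were left out. The nearest gene left out, Foxh1, had a mean level of 6.385, and the nearest kept, Jag2, of 6.386.

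The cells were primary stellate cells (the labels name the organism Rattus norvegicus albus) that had spent 7 days on plastic in medium with 10% fetal bovine serum, which activates them. Cells of the DKK-1 group were infected with an adenovirus that encodes DKK-1 (Ad.DKK-1) at a multiplicity of infection of 200. They spent 24 h with the virus in 5% serum and another 24 h in medium without it. Their control had the same schedule with a virus for green fluorescent protein (Ad.GFP). ICG-001 was given at 10 µM and FJ9 at 200 µM for 24 h without serum, each with a vehicle control of its own. Each array carried RNA pooled from cultures of 3 to 4 rats, and there was 1 array in each of the 6 groups, so single values have no replicate error. Virus, the hours in serum and the total time in culture were shared by Ad.DKK-1 and Ad.GFP and by no compound or vehicle array. An effect of DKK-1 that needs the virus or that schedule cannot be told apart from an effect of DKK-1 alone. The labels do not say from which species the viral DKK-1 sequence came.

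In the canonical Wnt pathway, Wnt ligands bring a Frizzled receptor together with the co-receptors LRP5 and LRP6, β-catenin accumulates, and it drives transcription with TCF and LEF factors. DKK-1 binds LRP5 and LRP6 at the cell surface, together with Kremen proteins, and is itself made in the endoplasmic reticulum (ER) and secreted. FJ9 was designed to block the PDZ domain of Dishevelled, which relays the Frizzled signal, and ICG-001 to keep β-catenin from the coactivator CBP. Stellate cells store vitamin A in the healthy liver and turn into matrix-producing, contractile cells after injury or in culture.

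The arrays carried high signal for the stellate markers, whose mean level over 16 measured markers lay between 10.11 and 11.22 on the 6 arrays (Col1a1, Col1a2, Vim, Pdgfrb, Lrat and others). Mean levels were 5.65 to 6.67 for 10 hepatocyte markers, 5.99 to 7.02 for 13 macrophage markers, 5.65 to 6.70 for 5 endothelial markers, 5.74 to 6.79 for 3 cholangiocyte markers, 6.16 to 7.22 for 7 lymphocyte markers and 6.57 to 7.86 for 7 markers of portal fibroblasts or mesothelium. Of these, 3, 4, 2, 2, 4 and 5 markers passed the level filter. In 6 of the 7 marker lists the mean was lowest on the Ad.DKK-1 array, and the stellate mean was lowest on the FJ9 array. The Ad.DKK-1 array also had the lowest median over all probe sets (7.01, against 7.11 to 7.28 on the others) and the most probe sets within 0.01 of the floor of 4 (382, against 49 to 222).

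A contrast of at least 1.5-fold (0.585 on the log2 scale) was found for 1201 genes in the higher direction (12% of 10025) and 1679 in the lower (16.7%). From their own controls, 14.5% of genes were higher and 20.8% lower under DKK-1, 12.6% and 13.1% under ICG-001, and 11.6% and 14.8% under FJ9. The vehicle for FJ9 stood above the vehicle for ICG-001 for 2.44% of genes and below it for 5.20%. Ad.GFP stood above the mean of the vehicles for 6.40% and below it for 6.49%. The Ad.DKK-1 array itself stood above the mean of the compound arrays for 12.8% and below it for 15.9%. The genes nearest the limit were Farsa (0.5851, inside) and Tpm3 (0.5849, outside) on the higher side, and Sgca (−0.5851, inside) and Acaa2 (−0.5845, outside) on the lower side. Because a mean over the compounds can be carried by 1 of them, genes were also required to lie at least 1.5-fold from each compound: 689 genes (6.87%) stood above both compounds and 918 (9.16%) below both. These are called apart from both compounds.

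Most of the apart genes had a difference of their own under DKK-1. Among the 689 higher genes, 344 were past 1.5-fold from Ad.GFP while neither compound was past it from its vehicle. In another 36 DKK-1 and a compound were past 1.5-fold the same way, with DKK-1 further. In 14 the DKK-1 difference was past 1.5-fold upward while both compounds were past it downward, in 55 only the compounds were past it, both of them, in 69 only 1 compound was past it, and 171 had other patterns. Among the 918 lower genes the corresponding numbers were 484, 117, 11, 62, 88 and 156. The level on the Ad.DKK-1 array itself lay at least 1.5-fold above both compound arrays for 407 of the 689 (59.1%), and at least 1.5-fold below both for 449 of the 918 (48.9%). Ad.GFP lay within 1.5-fold of both vehicles for 503 (73.0%) of the higher and 640 (69.7%) of the lower genes, against 76.6% of all 10025. Both conditions held for 352 and 380 genes.

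**Figure D1:**
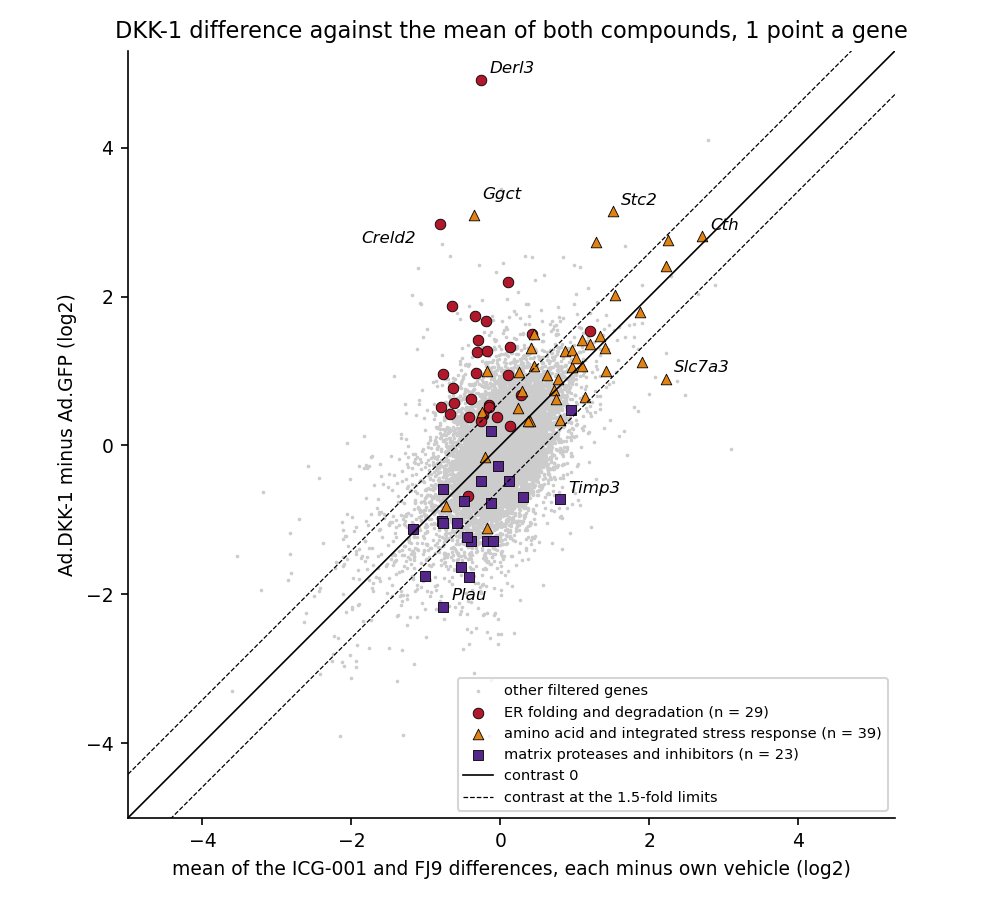
Ad.DKK-1 minus Ad.GFP (vertical, log2) against the mean of the ICG-001 and FJ9 differences from their vehicles (horizontal, log2), 1 point for each of 10025 genes. The solid line marks a contrast of 0 and the dashed lines the 1.5-fold limits; 23 of 29 genes for ER folding and degradation lie above the upper dashed line, 27 of 39 genes of the amino acid and integrated stress response lie between the dashed lines, and 13 of 23 matrix proteases and inhibitors lie below the lower one.

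With 1 array a group, the test that was run used the spread between the compounds. limma was fitted to the 3 treated-minus-control differences with a term for DKK-1, so that the difference between ICG-001 and FJ9 gives 1 residual degree of freedom per gene, pooled across genes. The compounds are not replicates, and the single DKK-1 difference is assumed to vary as they do. At a Benjamini-Hochberg adjusted p below 0.05, 27 genes passed with a higher contrast (0.269%) and 19 with a lower one (0.190%). At an unadjusted p below 0.05, 803 genes (8.01%) passed. The count of 46 depends strongly on the setting, from 8 after centring each array or after cyclic loess to 60 with no level filter. The 8 genes that passed under the main setting and all 5 alternatives were Derl3, Creld2, Ggct, Cptp, Amigo3, Gmppb, Myo16 and Ccna1. These were singled out after their values were seen, and Ccna1 is among them with a reading next to the floor on Ad.DKK-1.

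Genes for protein folding in the ER and for the disposal of misfolded proteins stood furthest above the compounds. Secreted and membrane proteins fold in the ER with the help of chaperones and disulfide isomerases, and misfolded ones are drawn back into the cytosol for degradation. When unfolded proteins accumulate, the sensors ATF6, IRE1 (through XBP1) and PERK switch on genes for both tasks, which is known as the unfolded protein response. Of 34 listed genes, 29 were measured and all 29 passed the level filter. The contrast was at least 1.5-fold higher for 23 of 29, against 12% of all genes, and at least 1.5-fold lower for 0 of 29, against 16.7%. The list was drawn up with earlier results of these data known. The median contrast of the list was 1.18, against −0.06 over all genes. The median difference from the own control was 0.95 for DKK-1, −0.22 for ICG-001 and −0.31 for FJ9. By gene, 18 of 29 were at least 1.5-fold higher on Ad.DKK-1 than on Ad.GFP (14.5% of all genes) and 1 lower (20.8%). Higher by any amount were 28, and 19 of these were lower than their vehicle under both compounds. The shares of all genes for these last 2 counts were not computed.

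Derl3, a member of the derlin family that helps to move misfolded proteins out of the ER, had the highest contrast among the apart genes. Its level was 11.61 on the Ad.DKK-1 array, 6.70 on Ad.GFP, 6.64 on ICG-001, 6.86 on its vehicle, 6.28 on FJ9 and 6.57 on its vehicle. The Ad.DKK-1 array stood alone, and the other 5 lay within a narrow band. The contrast was 5.17 ± 0.54 (standard error from limma, adjusted p = 1.91e-06, 5.44e-07 to 0.00572 over the alternatives).

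Creld2, an ER protein that responds to ER stress, read 12.27 on Ad.DKK-1, 9.30 on Ad.GFP, 9.01 on ICG-001, 9.56 on its vehicle, 8.70 on FJ9 and 9.75 on its vehicle. Ad.DKK-1 was again the one high array, while both compound arrays were the lowest of the 6. Its contrast was 3.77 ± 0.42 (standard error; limma adjusted p = 2.58e-06, 5.44e-07 to 0.00735 over the alternatives).

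Among the co-chaperones of BiP, the main ER chaperone of the Hsp70 family, Sdf2l1 read 9.76 on Ad.DKK-1, 7.89 on Ad.GFP, 6.94 on ICG-001, 7.67 on its vehicle, 7.20 on FJ9 and 7.75 on its vehicle. Both compound arrays stood below their vehicles, so that the contrast of 2.52 exceeded the DKK-1 difference of 1.88. Dnajb9 (ERdj4) read 12.29 on Ad.DKK-1 and 9.87 to 10.54 on the other 5 arrays, with a contrast of 2.09. Dnajc3 (p58IPK) read 11.89 on Ad.DKK-1 and 9.84 to 10.35 on the others, with a contrast of 2.09. For these 3 genes limma gave adjusted p = 0.0177, 0.00609 and 0.00617, and the highest value over the alternatives was 0.125 for each. Dnajb11 (ERdj3) had a contrast of 1.57 and did not pass.

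The chaperones themselves followed the same pattern at smaller size. Hyou1 (GRP170), which assists BiP, read 12.49 on Ad.DKK-1 against 10.83 on Ad.GFP and 10.86 to 11.14 on the compound and vehicle arrays, a contrast of 1.86. Manf, a small secreted protein that the unfolded protein response induces, read 12.34 on Ad.DKK-1 against 10.92 on Ad.GFP and 10.68 to 11.07 on the compound and vehicle arrays, a contrast of 1.73. Hspa5, which encodes BiP, read 13.67 on Ad.DKK-1, 12.36 on Ad.GFP, 12.74 on ICG-001, 12.60 on its vehicle, 12.76 on FJ9 and 12.63 on its vehicle. Its contrast was 1.18, and the limma adjusted p was 0.183, so it did not pass. Hsp90b1 (GRP94) had a contrast of 1.3 without passing. Hyou1 and Manf passed with limma adjusted p = 0.0144 (0.0127 to 0.175 over the alternatives) and 0.0253 (0.0238 to 0.219).

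Part of the contrast of the folding enzymes came from lower values under the compounds. Pdia4, a protein disulfide isomerase, read 12.63 on Ad.DKK-1, 11.68 on Ad.GFP, 10.61 on ICG-001, 11.70 on its vehicle, 11.12 on FJ9 and 11.59 on its vehicle. The 3 controls lay close together, Ad.DKK-1 above them and both compounds below them, and the contrast of 1.73 passed (limma adjusted p = 0.0297, 0.0269 to 0.246 over the alternatives). Calr (calreticulin, a lectin chaperone of glycoproteins) was 0.51 higher with DKK-1, 0.82 lower with ICG-001 and 0.77 lower with FJ9. Pdia6 gave 0.57, −0.49 and −0.74, and Pdia3 gave 0.39, −0.46 and −0.39, each in the order DKK-1, ICG-001 and FJ9. For Calr only the compounds were past 1.5-fold.

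For ER-associated degradation, Syvn1 (the ubiquitin ligase HRD1) had a contrast of 1.44, Herpud1 of 1.07 and Sel1l, the partner of HRD1, of 0.85, and none of the 3 passed the test. Herpud1 was higher under every treatment, by 1.49 under DKK-1 and by 0.43 under each compound. The sensor gene Atf6 did not follow the list: it was higher by 1.54 for DKK-1, 1.15 for ICG-001 and 1.25 for FJ9, a contrast of 0.34. Xbp1, as a total transcript without regard to splicing, had a contrast of 0.67. Ero1a, an oxidase that keeps the disulfide isomerases working, had the lowest contrast of the list (−0.24) and was lower under all 3 treatments.

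The pattern was carried by the treated arrays. For all 29 genes Ad.GFP lay within 1.5-fold of both vehicles (76.6% of all genes). Ad.GFP minus the mean of the vehicles was between −0.38 and 0.23. The difference between the vehicles lay between −0.30 and 0.37. Ad.DKK-1 was the highest of the 6 arrays for 26 of the 29, a count whose share over all genes was not computed. When the 10025 genes were split into 3 equal groups by mean level, 26 of the 29 lay in the highest group, where 1.65% of all genes differed by 1.5-fold between the vehicles. Over the scaling, control, filter and probe set alternatives the number at least 1.5-fold higher stayed between 20 and 24, and the median between 1.07 and 1.24; at a limit of 2-fold, 18 genes were higher. For these genes the Ad.GFP array read near the vehicle arrays, with 1 array in each group. The part of the virus, its schedule or the making of DKK-1 in the ER in the Ad.DKK-1 values was not tested.

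**Figure D2:**
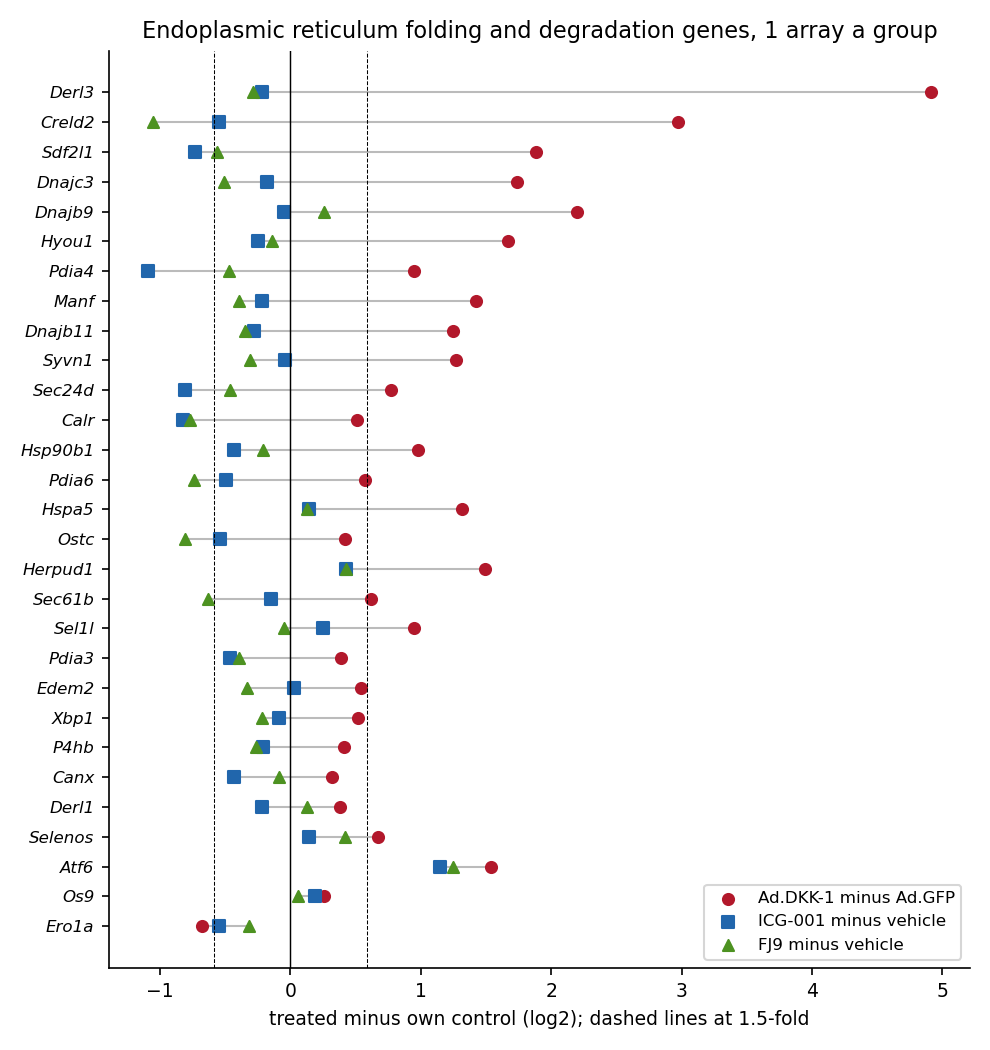
Treated minus own control (log2) for 29 genes of ER folding and degradation under DKK-1 (circles), ICG-001 (squares) and FJ9 (triangles), 1 array a group, ordered by the contrast; dashed lines mark 1.5-fold. The DKK-1 point lies to the right of 0 for 28 genes and Ero1a is the exception, while both compounds lie to the left of 0 for 20 of the 29.

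Outside the list, Gmppb, which makes the mannose donor for glycosylation, read 10.55 on Ad.DKK-1, 8.54 on Ad.GFP, 7.49 on ICG-001, 8.64 on its vehicle, 7.47 on FJ9 and 8.70 on its vehicle. The controls agreed closely, and DKK-1 and the compounds departed from them in opposite directions. Its contrast was 3.21 ± 0.47 (standard error; limma adjusted p = 0.000257, 0.000147 to 0.0266 over the alternatives). Ficd, the ER enzyme that modifies BiP, read 10.66 on Ad.DKK-1 against 8.14 on Ad.GFP, with a contrast of 2.10 (limma adjusted p = 0.0351, 0.0299 to 0.266 over the alternatives). It was also higher on ICG-001 (9.25) than on its vehicle (8.34). Kdelr3, a receptor that returns ER proteins from the Golgi, had a contrast of 1.65, but here the larger differences were those of the compounds (−1.27 and −0.93, against 0.55 under DKK-1). It passed with limma adjusted p = 0.0463 (0.0427 to 0.247 over the alternatives). Chosen after their values were seen, Sec23a, a coat subunit of vesicles leaving the ER, and Piga, which begins the synthesis of GPI anchors, also passed, with contrasts of 1.80 and 2.11.

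Genes of the amino acid and integrated stress response formed a nearby set that was largely shared by the treatments. This response runs through ATF4, which PERK and the amino acid sensor GCN2 both feed, and it raises amino acid transporters and synthetic enzymes. Of 40 listed genes 39 were measured and passed the filter. The median difference was 1.06 for DKK-1, 0.81 for ICG-001 and 0.91 for FJ9, which left a median contrast of 0.16. At least 1.5-fold higher under DKK-1 were 31 of 39 (14.5% of all genes). In the contrast 9 were higher (12% of all genes) and 3 lower (16.7%). Cth, which makes cysteine, illustrates the shared part: it read 8.51 on Ad.DKK-1 against 5.70 on Ad.GFP, 9.10 on ICG-001 against 6.33, and 9.29 on FJ9 against 6.66, a contrast of 0.10. Asns, Trib3, Chac1, Ppp1r15a and Atf3 had contrasts between −0.10 and 0.51. When the mean of the vehicles replaced Ad.GFP as control, the list median was −0.15, with 5 higher and 5 lower (12.8% and 15.9% of all genes).

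A few members of this response stood apart. Ggct, which acts in the glutathione cycle, read 10.88 on Ad.DKK-1, 7.79 on Ad.GFP, 7.70 on ICG-001, 7.95 on its vehicle, 7.95 on FJ9 and 8.41 on its vehicle. No array but Ad.DKK-1 was high. The contrast was 3.44. A second probe set had the same mean level (8.45) and the same contrast, so it may not be a separate measurement. Ddit3 (CHOP), the factor that links prolonged ER stress to cell death, was higher under all 3 treatments, by 2.73, 1.19 and 1.38 in the order DKK-1, ICG-001 and FJ9. Its contrast of 1.45 did not pass (limma adjusted p = 0.154). Stc2, a secreted glycoprotein, had a contrast of 1.64, but Ad.GFP read 6.36 where the vehicles read 8.25 and 8.28, while the treated arrays lay between 9.51 and 9.81. With the vehicles as control the contrast turned to −0.27. In the other direction, Slc7a3, a cationic amino acid transporter, was 0.90 higher under DKK-1 and 2.14 and 2.30 higher under ICG-001 and FJ9 (contrast −1.32, not passed). Gdf15 had a contrast of −0.78, with a difference of 2.82 under FJ9.

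The aminoacyl-tRNA synthetases, which load amino acids on tRNA, were likewise shared. All 19 measured of 38 listed passed the filter, with median differences of 0.79 for DKK-1, 0.58 for ICG-001 and 0.58 for FJ9. In the contrast 2 of 19 were at least 1.5-fold higher (12% of all genes) and 0 lower (16.7%). The 2 were Farsb at 0.62 and Farsa on the limit. Ribosome biogenesis genes (27 measured of 33 listed, all past the filter) gave 0.75, 0.61 and 0.75 and a median contrast of 0.14. Higher were 2 of 27 (12% of all genes), Gar1 (0.79) and Nop58 (0.64), and 0 were lower (16.7%). The ribosomal proteins themselves (35 of 40 listed) gave −0.15 for DKK-1, −0.03 for ICG-001 and 0.31 for FJ9. Their median contrast was −0.23, with 0 of 35 positive, a count whose share over all genes was not computed. Among them 2, Rps19 (−0.88) and Rpl15 (−0.64), were at least 1.5-fold lower (16.7% of all genes), and 0 were higher (12%). The 5 probe sets of Rps19 gave −0.76 to −0.88.

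**Figure D3:**
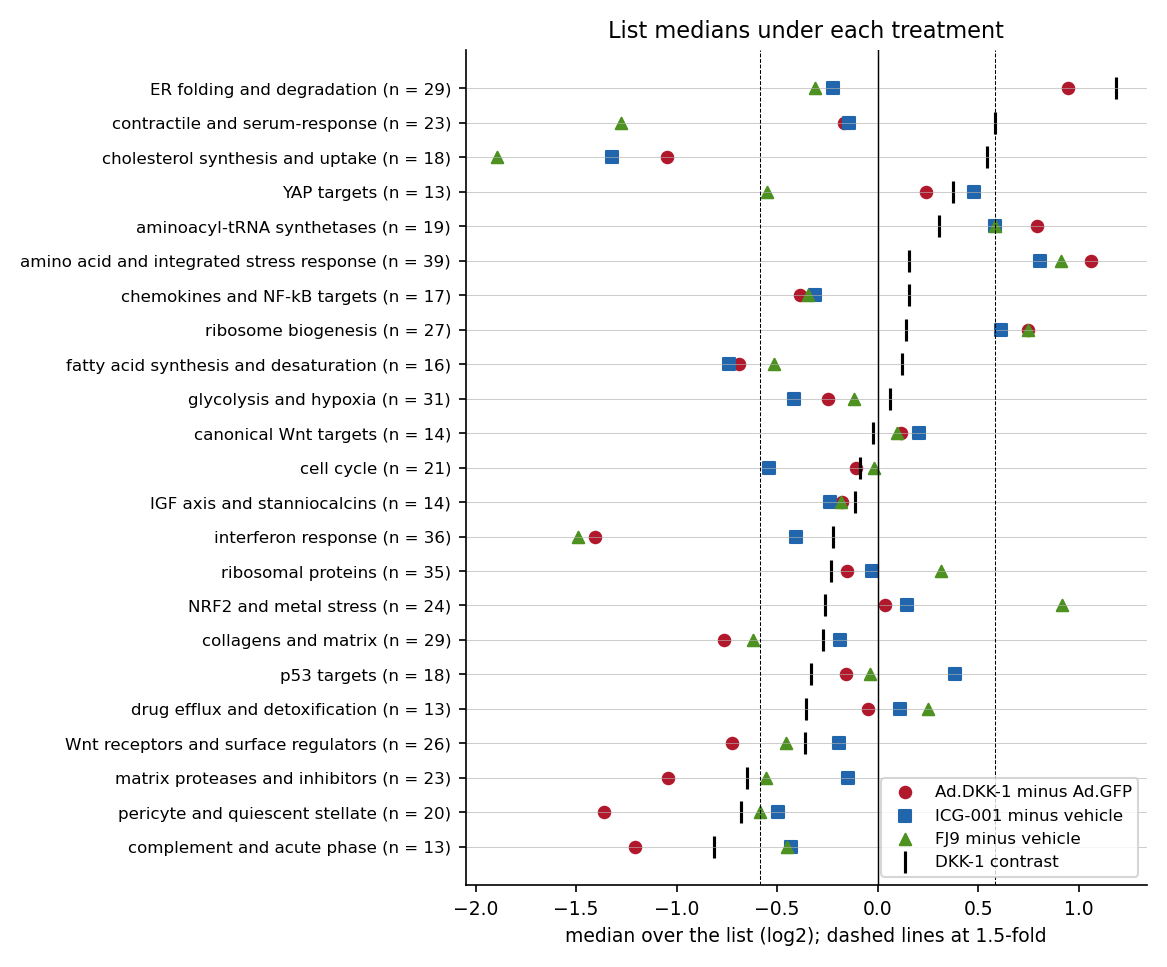
Median difference from the own control (log2) of each gene list under DKK-1 (circles), ICG-001 (squares) and FJ9 (triangles), with the median DKK-1 contrast as a vertical bar; n is the number of genes past the level filter and dashed lines mark 1.5-fold. ER folding and degradation is the one list whose DKK-1 median lies past 1.5-fold on the opposite side of 0 from both compounds, while the amino acid and integrated stress response lies at 1.06, 0.81 and 0.91.

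The 12 highest contrasts among the apart genes ran from 2.56 to 5.17. Chosen by the same contrast that limma tests, these 12 genes gain no separate support from a pass. Beside Derl3, Creld2, Ggct and Gmppb they held Amigo3, Or55b10, Myo16, Cptp, Cst12, Isyna1, Pkmyt1 and Cd200. Cptp, which carries ceramide-1-phosphate between membranes, read 11 on Ad.DKK-1, 8.45 on Ad.GFP, 7.90 on ICG-001, 8.52 on its vehicle, 7.76 on FJ9 and 8.50 on its vehicle, a contrast of 3.23 ± 0.46 (standard error; limma adjusted p = 0.000242, 0.000132 to 0.0266 over the alternatives). Amigo3, a transmembrane adhesion protein with leucine-rich repeats, read 10.36, 7.98, 7.22, 8.15, 6.91 and 8.20 on the arrays in the same order, a contrast of 3.49. Both genes had near-equal controls, a high Ad.DKK-1 array and low compound arrays. Myo16, an unconventional myosin, read 10.02 on Ad.DKK-1 and 6.20 to 6.58 on the other 5 arrays, a contrast of 3.44. For Amigo3 and Myo16 limma gave adjusted p = 0.000242 and 0.00159, and 0.0266 as the highest value over the alternatives for both.

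Of the others, Pkmyt1, a kinase that restrains entry into mitosis, read 9.03 on Ad.DKK-1 and 6.53 to 7.04 elsewhere (contrast 2.70). The remaining 4 owed part or all of their contrast to further arrays. Isyna1, the enzyme that makes inositol from glucose phosphate, read 11.63 on Ad.DKK-1, 9.74 on Ad.GFP, 7.73 on ICG-001, 9.55 on its vehicle, 8.28 on FJ9 and 8.59 on its vehicle. Its contrast of 2.96 joined a DKK-1 difference of 1.89 to an ICG-001 difference of −1.82. Cd200, a membrane glycoprotein, was lower under DKK-1 too, by 0.62, and its contrast of 2.56 came from differences of −2.30 under ICG-001 and −4.07 under FJ9. For Cst12 and Or55b10, an olfactory receptor gene, both Ad.GFP and ICG-001 were low: Cst12 read 5.19 on Ad.GFP and 5.12 on ICG-001, but 7.32 and 7.37 on the vehicles and 7.10 on Ad.DKK-1. Or55b10 read 6.47 on Ad.GFP and 7.38 on ICG-001, 8.94 and 9.13 on the vehicles and 9.18 on Ad.DKK-1. Their Ad.DKK-1 arrays were thus close to the vehicle arrays.

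The 12 lowest contrasts ran from −3.74 to −2.34. These genes too were chosen by the contrast that limma tests, so a pass among them is no separate support. On the Ad.DKK-1 array 11 of these 12 read 4.03 to 5.62, below the limit of the level filter, and that array also had more probe sets near the floor than the others; the part of this in the results was not tested. Ccna1 (cyclin A1) read 4.03 on Ad.DKK-1, 7.93 on Ad.GFP, 8.0 on ICG-001, 8.23 on its vehicle, 7.84 on FJ9 and 7.92 on its vehicle. A single array was low and the others lay close together. The low reading is next to the floor of 4, so its distance from the other arrays cannot be read as an exact size. As fitted, the contrast was −3.74 ± 0.55 (standard error; limma adjusted p = 0.000257, 0.000222 to 0.0266 over the alternatives). Slc44a3 (contrast −3.03), Alox15, a lipoxygenase (−2.70), Rxfp2, a relaxin-family receptor (−2.63), Klk1c6, a kallikrein (−2.55), and Efna4, an ephrin ligand (−2.50), also had Ad.DKK-1 as the lowest array, between 4.98 and 5.38 with the other arrays between 7.40 and 9.52. In Slc44a3 and Alox15 a compound was past 1.5-fold downward as well (−0.71 with ICG-001 and −0.97 with FJ9). The others of these 11 were C7, Angptl8, Ikzf2, Slc11a1 and Or4c125, with contrasts of −2.58, −2.70, −2.45, −2.44 and −2.34, of which C7 and Angptl8 passed.

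Mt1, a metallothionein that binds zinc and copper, was the exception among the lowest contrasts. It read 8.59 on Ad.DKK-1, 8.64 on Ad.GFP, 7.82 on ICG-001, 6.18 on its vehicle, 11.81 on FJ9 and 7.25 on its vehicle. Ad.DKK-1 and Ad.GFP were level, and its contrast of −3.15 came from the compounds (1.64 and 4.55). It passed with limma adjusted p = 0.022 (0.0129 to 0.359 over the alternatives). A second Mt1 probe set gave −3.08, and Mt2A, a close relative that can share probe signal with it, had a contrast of −1.51.

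The remaining genes that passed limma lay outside the rule for named genes and were picked after their values were seen. With a higher contrast they were, beside Sec23a and Piga, Far1, which makes fatty alcohols for ether lipids (1.65), Slc17a9, a vesicular nucleotide transporter (1.75), and Srpx2 (2.06). Srpx2 was lower under all 3 treatments and least under DKK-1. With a lower contrast they were Apoe (−1.94), A2m (−1.72), Sparcl1 (−2.02), Pamr1 (−2.29), Ceacam4 (−2.18), the transcription factor Sox4 (−1.75), and Plbd2 (−1.81) and Dpp7 (−1.64), both hydrolases of lysosomes or related vesicles. Apoe, a lipid carrier, read 8.21 on Ad.DKK-1, 10.05 on Ad.GFP, 9.50 on ICG-001, 9.47 on its vehicle, 9.33 on FJ9 and 9.17 on its vehicle. Ad.DKK-1 was the lowest and Ad.GFP the highest of the 6 arrays. Plbd2 read 9.60 on Ad.DKK-1 and 10.79 to 11.20 on the other 5 arrays. Several genes that passed with a higher contrast, named above, belonged to the ER folding and degradation list. That list holds 29 of the 10025 genes and was drawn up with earlier results of these data known.

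**Figure D4:**
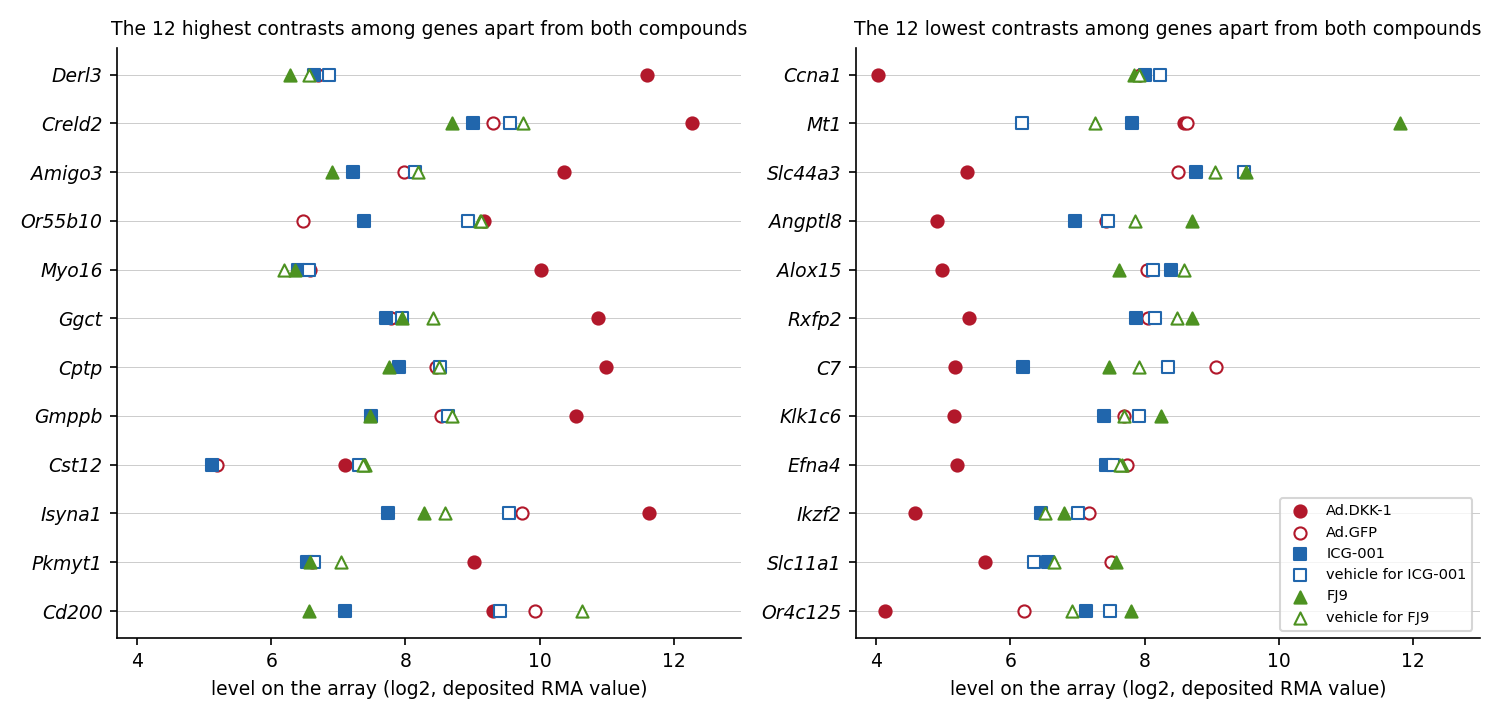
Level on each of the 6 arrays (log2, deposited values; filled symbols treated, open symbols controls) for the 12 highest and 12 lowest contrasts among genes apart from both compounds. Ad.DKK-1 stands alone for Derl3, Creld2, Ggct and Myo16 on the left, Cst12 and Or55b10 have low Ad.GFP and ICG-001 arrays, and 11 of the 12 genes on the right read 4.03 to 5.62 on Ad.DKK-1.

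In 25 genes DKK-1 and both compounds were past 1.5-fold in opposite directions, 14 with DKK-1 higher and 11 with DKK-1 lower. Beside Amigo3, Cptp and Gmppb, the named ones with DKK-1 higher were Pkp2, Fam228a and Tmem97. Tmem97, a sterol-regulated ER protein that is the sigma-2 receptor, read 10.91 on Ad.DKK-1, 9.98 on Ad.GFP, 8.28 on ICG-001, 10.08 on its vehicle, 8.53 on FJ9 and 9.58 on its vehicle. Ad.DKK-1 was the highest array and both compounds the lowest, and the contrast of 2.36 passed (limma adjusted p = 0.00609, 0.0034 to 0.125 over the alternatives). Pkp2, a plakophilin of desmosomes, had a contrast of 2.55 that passed as well, with Ad.GFP at 7.88 and the vehicles at 8.93 and 9.37. Fam228a, at 2.42, did not pass. Its mean level of 6.388 is at the limit of the filter, which it passed through its high Ad.DKK-1 array.

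With DKK-1 lower, Mdk, a heparin-binding growth factor, read 8.07 on Ad.DKK-1, 9.17 on Ad.GFP, 9.74 on ICG-001, 8.70 on its vehicle, 9.44 on FJ9 and 8.03 on its vehicle. Its contrast of −2.32 passed (limma adjusted p = 0.0125, 0.00834 to 0.125 over the alternatives), although Ad.DKK-1 was level with the vehicle for FJ9. Adh1c (−2.22), Sat2 (−2.01), Bdh2 (−1.88), Tnfrsf21 (−1.78) and Uap1l1 (−1.74) did not pass. In Adh1c, Sat2, Bdh2 and Uap1l1, Ad.GFP stood 1.09 to 1.64 above the mean of the vehicles, and only Tnfrsf21, a death receptor, had controls close together (8.71 on Ad.GFP, 8.55 and 8.47 on the vehicles).

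Genes of complement and the acute phase had the lowest median contrast of the 23 lists. These are proteins of innate defence that stellate cells secrete along with hepatocytes. Of 20 listed genes 14 were measured and 13 passed the filter. The contrast was at least 1.5-fold lower for 7 of 13 (16.7% of all genes) and higher for 1, Lcn2 (0.78), and the median contrast was −0.82. The median differences were −1.21 for DKK-1, −0.43 for ICG-001 and −0.45 for FJ9, so the medians shared a direction and that of DKK-1 lay lowest. Serpina3n, a protease inhibitor of the acute phase, read 7.82 on Ad.DKK-1, 10.98 on Ad.GFP, 9.62 on ICG-001, 10.92 on its vehicle, 9.41 on FJ9 and 10.88 on its vehicle. The 3 controls agreed, both compound arrays were lower, and Ad.DKK-1 was the lowest. Its contrast of −1.77 passed with limma adjusted p = 0.0351 (0.032 to 0.23 over the alternatives).

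C7, a component of the terminal complement complex, read 5.18 on Ad.DKK-1 against 9.07 on Ad.GFP, 6.19 on ICG-001 against 8.36, and 7.47 on FJ9 against 7.92. Its contrast of −2.58 passed with limma adjusted p = 0.0487 (0.0455 to 0.256 over the alternatives). C6 (−1.66), the protease C1s (−1.02), its inhibitor Serping1 (−0.91) and ceruloplasmin, Cp (−0.84), were lower without passing. The hepatocyte markers past the filter had contrasts of −1.15 (Apoa2), 0.46 (Ahsg) and 0.97 (Hnf4a). The macrophage markers past it had −1.30 (Lyz2), −0.78 (Cd68), 0.34 (Cd14) and 0.35 (Csf1r), and their part in the result was not tested. In RNA pooled from whole cultures, fewer cells of a type and less RNA per cell cannot be told apart.

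Matrix proteases and their inhibitors gave the most one-sided lower count of the 23 lists. They shape the scar that activated stellate cells lay down. Of 28 listed genes 27 were measured and 23 passed the filter. In the contrast 13 of 23 were lower (16.7% of all genes) and 0 higher (12%), 9 were below both compounds (9.16%), and the median was −0.65. Against FJ9 alone 11 were lower and 3 higher. No member passed the test. The lower genes held both proteases and inhibitors. The proteases included the plasminogen activators Plau (−1.39) and Plat (−1.18) and the procollagen protease Adamts2 (−1.34). They also included the metalloproteases Mmp12 (−1.15), Mmp3 (−1.0), Mmp23 (−0.89) and Mmp2 (−0.65). Among the inhibitors were Timp1 (−1.11), Timp2 (−1.10) and Serpine2 (−0.78). The 3 positive contrasts were those of Plaur (0.32), Mmp16 (0.18) and Reck (0.05). Plau read 5.16 on Ad.DKK-1, below the level limit of 6.39. Mmp3 was 0.91 higher under FJ9, and its Ad.GFP minus the mean of the vehicles was −1.93.

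Timp1, the tissue inhibitor of metalloproteases that activated stellate cells make in quantity, read 10.87 on Ad.DKK-1, 12.50 on Ad.GFP, 11.77 on ICG-001, 12.32 on its vehicle, 11.69 on FJ9 and 12.20 on its vehicle. All treatments were below their controls and Ad.DKK-1 was lowest. Plat read 10.58 on Ad.DKK-1 and 11.28 to 11.87 on the other 5 arrays. Timp3 (−1.52) was different: its contrast rested on ICG-001, where it read 10.69 against 8.46. Median differences over the list were −1.04 for DKK-1, −0.15 for ICG-001 and −0.56 for FJ9. The list median stayed between −0.76 (against ICG-001 alone) and −0.45 (vehicles as control of Ad.DKK-1).

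The collagens and matrix proteins themselves had smaller contrasts, and none passed the test. Of 40 listed genes 32 were measured and 29 passed the filter, with a median contrast of −0.27, 8 lower (16.7% of all genes) and 0 higher (12%). Against FJ9 alone the median was −0.02, with 4 lower and 3 higher, and against ICG-001 alone −0.53, with 13 and 0. Col1a1 (0.02) and Col1a2 (0.21) had contrasts near 0, Col3a1 was at −0.61 and the basement membrane collagen Col4a1 at −0.88. Below both compounds were 3 of 29 (9.16% of all genes): Fbln1 (−2.25), Postn (−1.62) and Col4a1. Fbln1 (fibulin-1) read 4.96 on Ad.DKK-1 and 7.54 to 8.03 on the other 5 arrays, and its limma adjusted p was 0.0624.

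Genes of pericytes and of quiescent stellate cells, such as those for vitamin A handling and lipid storage, had a median contrast of −0.68 over the 20 that passed the filter (23 measured of 24 listed). At least 1.5-fold lower were 10 (16.7% of all genes) and higher was 1 (12%), and none passed the test. Rbp4, the retinol-binding protein, read 7.06 on Ad.DKK-1, 8.97 on Ad.GFP, 8.80 on ICG-001, 9.32 on its vehicle, 9.49 on FJ9 and 9.13 on its vehicle, a contrast of −1.83. Fabp4 (−1.86), Notch3 (−1.62), Reln (−1.14), the lipid droplet protein Plin2 (−0.99) and Hgf (−0.96) were also below both compounds. Lrat, which esterifies vitamin A, was the 1 gene on the other side (1.07), because it was lower under FJ9 (7.18 against 10.52) than under DKK-1 (10.65 against 11.96).

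For this list the control mattered. Of the 15 stellate markers past the filter, some of which the list also holds, 4 were lower (16.7% of all genes) and 1 higher (12%). Ad.GFP was at least 1.5-fold above the mean of the vehicles for 7 of the 20 genes (6.40% of all genes), with a median of 0.45. With the vehicles as control of Ad.DKK-1 the list median was −0.36, with 6 lower and 2 higher (15.9% and 12.8% of all genes). Igfbp5 read 6.58 on Ad.DKK-1 and 10.49 on Ad.GFP, but 9.62 and 8.0 on the vehicles, and 7.40 and 5.92 under ICG-001 and FJ9. Rgs5 read 10.41 on Ad.GFP against 8.96 and 9.17, and its contrast of −1.12 became 0.22 with the vehicles as control.

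Within the Wnt pathway the canonical target genes showed no single direction in the contrast, while the surface molecules leaned lower. The Dkk1 probe set did not pass the level filter and read 6.01 on Ad.DKK-1 and 5.85 on Ad.GFP. Since the probes are those of the rat gene and the species of the viral sequence is not stated, this does not test delivery. Among the surface molecules (33 listed, 30 measured, 26 past the filter) the median contrast was −0.36, with 8 lower (16.7% of all genes) and 2 higher (12%) and none passing the test. From their own controls, 15 of the 26 were at least 1.5-fold lower and 0 higher under DKK-1 (20.8% and 14.5% of all genes). Under ICG-001 6 were lower and 0 higher (13.1% and 12.6%), and under FJ9 12 and 1 (14.8% and 11.6%). DKK-1's own co-receptors read lower after every treatment, Lrp6 with ICG-001 only slightly. That difference (−0.12) was smaller than the one between the vehicles for Lrp6 (−0.17). Lrp5 read 9.40 on Ad.DKK-1 against 10.76, 9.59 on ICG-001 against 10.42 and 9.36 on FJ9 against 10.09, and Lrp6 read 9.52 against 10.50, 10.21 against 10.34 and 9.51 against 10.17. Their contrasts were both −0.58, short of the limit. Kremen1 (−0.36) and Kremen2 (0.06) were not past it.

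Below both compounds were 6 of the 26 surface molecules (9.16% of all genes), and above both was 1 (6.87%). Those below held Lrp4 (−1.49), a relative of the co-receptors, the receptor kinase Ror2 (−1.32), and the secreted antagonists Frzb (−1.29) and Dkk3 (−1.02). They also held Porcn (−1.04), which attaches the lipid to Wnt ligands, and the glypican Gpc3 (−1.03). On Ad.DKK-1, Lrp4, Ror2 and Gpc3 read 6.02, 5.98 and 5.38, below the level limit of 6.39. Ror2 was also 0.68 higher under FJ9. Ad.GFP minus the mean of the vehicles was 0.91 for Porcn, 0.66 for Frzb and −1.09 for Gpc3. The part of these levels and controls in the contrasts was not tested. Sfrp1, another secreted antagonist, was on the other side (1.05): it read 7.21 on Ad.DKK-1 against 9.02, 7.63 on ICG-001 against 10.03 and 6.53 on FJ9 against 9.84. The Frizzled receptors past the filter had contrasts between −0.20 and 0.61.

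Canonical target genes split by treatment. Of 24 listed, 19 were measured and 14 passed the filter, with 2 higher and 3 lower in the contrast, near the shares over all genes (12% and 16.7%), and 0 passing limma. Axin2, the most widely used read-out of β-catenin signalling, read 7.12 on Ad.DKK-1 against 9.08, 8.82 on ICG-001 against 8.94 and 6.23 on FJ9 against 8.77. DKK-1 and FJ9 were low and ICG-001 was not, so the contrast of −0.62 hid a pair of unlike compounds; against FJ9 alone it was 0.58. Ccnd1 (cyclin D1) read 11.11 against 12.09 under DKK-1, 11.94 against 12.12 under ICG-001 and 9.18 against 12.13 under FJ9. Its contrast was 0.58, and −0.80 against ICG-001 alone.

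Nkd1, a feedback inhibitor, read 8.68 on Ad.DKK-1 against 9.97, 8.41 on ICG-001 against 9.41 and 8.93 on FJ9 against 9.09, a contrast of −0.71. Myc was higher under all 3 treatments (1.02, 0.75 and 0.81), with Ad.GFP at 8.95 and the vehicles at 9.99 and 9.97. The higher targets, Twist1 (1.11) and Fosl1 (1.02), were likewise higher than their control under each treatment. With the mean of the vehicles as control of Ad.DKK-1 their contrasts were 0.585 and 0.186. Lef1 did not pass the level filter. Ctnnb1, the gene of β-catenin, had a contrast of −0.23.

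Other lists owed their contrast to 1 compound or to the controls. Interferon-response genes (48 listed, 39 measured, 36 past the filter) had median differences of −1.41 for DKK-1, −0.41 for ICG-001 and −1.49 for FJ9. The median contrast was −0.22, −0.79 against ICG-001 alone and 0.32 against FJ9 alone. Ad.GFP was at least 1.5-fold above the mean of the vehicles for 21 of the 36 genes (6.40% of all), and the vehicle for FJ9 above that for ICG-001 for 17 (2.44% of all). With the vehicles as control of Ad.DKK-1 the median became 0.45. Isg15, a ubiquitin-like protein that interferon induces, read 8.06 on Ad.DKK-1, 10.78 on Ad.GFP, 8.30 on ICG-001, 8.72 on its vehicle, 6.53 on FJ9 and 9.63 on its vehicle. The controls differed among themselves by more than the contrast of −0.95. Mx1 and Mx2, which can share probe signal, had contrasts of 0.30 and −0.64.

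Contractile and serum-response genes (23 measured of 28 listed, all past the filter) had a median contrast of 0.58, with 11 higher and 0 lower (12% and 16.7% of all genes). Above both compounds was 1 gene of the 23, Srf (6.87% of all genes). The median difference was −0.17 for DKK-1, −0.14 for ICG-001 and −1.28 for FJ9. Against ICG-001 alone the median contrast was 0.01 and against FJ9 alone 1.02. With the vehicles as control of Ad.DKK-1 it was 0.02, with 6 higher and 4 lower (12.8% and 15.9% of all genes). Lmod1 (leiomodin) read 8.42 on Ad.DKK-1 against 8.66, 8.79 on ICG-001 against 8.69 and 5.50 on FJ9 against 8.83. FJ9 alone was low. Tnnt2 (troponin T) was low under each, and lowest under ICG-001 (7.60 against 11.34). YAP targets (13 measured of 18 listed, all past the filter) had 6 higher and 1 lower (12% and 16.7% of all genes) and a median contrast of 0.38. Ad.GFP was at least 1.5-fold below the mean of the vehicles for 7 of the 13 (6.49% of all), and with the vehicles as control the median turned to −0.33. Edn1 (endothelin-1, contrast 1.78) was higher by 1.62 under DKK-1 and 1.40 under ICG-001 and lower by 1.72 under FJ9, and with the vehicles as control its contrast was 0.22.

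Genes that answer to NRF2, the regulator of antioxidant defence, and to metals (24 measured of 28 listed, all past the filter) had a median contrast of −0.26, with 7 lower (16.7% of all genes) and 0 higher (12%). It was −0.87 against FJ9 alone, with 16 lower and 0 higher, and 0.03 against ICG-001 alone, with 2 and 5. Hmox1 (heme oxygenase) read 9.41 on Ad.DKK-1 against 9.29, 8.64 on ICG-001 against 8.46 and 11.74 on FJ9 against 8.73. It stood near its control with DKK-1 and ICG-001, and well above it with FJ9.

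Genes of cholesterol synthesis and uptake (18 measured of 25 listed, all past the filter) were lower under every treatment, least under DKK-1. Median differences were −1.05 for DKK-1, −1.32 for ICG-001 and −1.90 for FJ9, and the median contrast was 0.54, with 9 higher and 1 lower (12% and 16.7% of all genes). Mvd read 8.35 on Ad.DKK-1 against 8.64, 7.12 on ICG-001 against 9.23 and 6.83 on FJ9 against 8.40, a contrast of 1.54. Against ICG-001 alone the list median was 0.07. The vehicle for FJ9 was at least 1.5-fold below that for ICG-001 for 7 of the 18 genes (5.20% of all). With the vehicle for FJ9 for both compounds 3 were higher and 2 lower (median 0.25), against 1336 and 1782 of all 10025 genes. With that for ICG-001 the counts were 14 and 0 (0.79), against 1291 and 1733. With the mean of the vehicles as control of Ad.DKK-1 they were 3 and 0 (0.37), against 12.8% and 15.9% of all genes. None of the genes of the interferon, contractile, YAP and cholesterol lists passed limma, and Mt1 was the only one of the NRF2 and metal list.

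**Figure D5:**
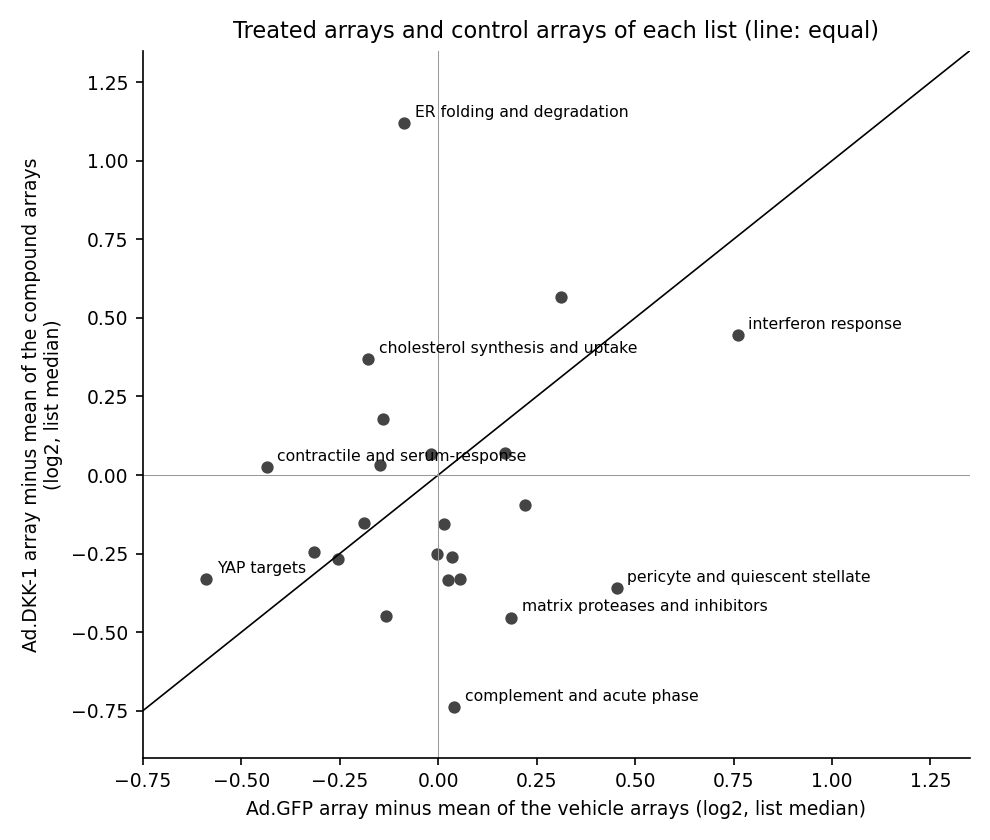
Median over each gene list of Ad.DKK-1 minus the mean of the compound arrays (vertical, log2) against Ad.GFP minus the mean of the vehicle arrays (horizontal, log2); the median contrast of a list is close to its vertical distance from the diagonal, on which both are equal. ER folding and degradation lies at 1.12 on the vertical and −0.09 on the horizontal axis, complement and acute phase at −0.74 and 0.04, and interferon response at 0.45 and 0.76.

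The contrasts were more spread at low levels. In the lowest of the 3 groups by mean level (6.39 to 7.85) 14.6% of genes were higher and 21.8% lower, and 15.5% differed by 1.5-fold between the vehicles. In the middle group 10.9% were higher and 16.8% lower, and 5.75% differed between the vehicles. In the highest group (9.38 to 13.35) 10.5% were higher and 11.6% lower, and 1.65% differed between the vehicles. The excess of lower over higher calls was smallest in the highest group. It also depended on the scaling: after cyclic loess 1370 genes were higher and 1481 lower, and 796 and 810 lay apart from both compounds.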

How the data were processed

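Total RNA of cultured stellate cells, pooled over 3 to 4 rats, was hybridised to 6 Affymetrix arrays. Per the submitters' processing notes, the authors made the deposited log2 values in Affymetrix Expression Console by the RMA method. Versions, annotation release and build: not given in the sources used here. No detection calls were used, and the number of arrays limits the precision.

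The platform annotation gave 1 symbol for 15092 of 26988 probe sets and several for 323. The probe set with the highest mean stood for a gene, and the lowest 30% of gene means were left out. Entrez identifiers of 15062 probe sets matched RefSeq (GRCr8); 0 symbols changed. Differences, the contrast and 1.5-fold counts were computed in Python 3.11.15; limma 3.58.1 in R 4.3.3 (lmFit, then eBayes with a mean trend; two-sided p) tested the contrast and was tested on simulated data.

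Named genes were the 12 highest and 12 lowest contrasts among genes apart from both compounds (uncharacterised loci, small RNAs and receptors with Olr or Vom symbols left out, so that olfactory receptors under newer symbols stayed in), the 6 furthest from a compound in each pattern, up to 4 members of each of 23 gene lists and 7 marker lists with the largest contrast, and 11 Wnt genes. Other members are named as examples of their list. The members and lists were chosen with earlier results of these data known. Alternatives changed the array scale, filter, fold limit, probe set rule, compound and control.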

Additional observations from a re-analysis of the deposited data

Results flagged for a closer look

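A difference in direction between treatments was noted where DKK-1 lay past 1.5-fold on one side of its control and both compounds on the other. That difference in direction was not tested by itself. Of 14 such genes with DKK-1 higher and 11 with DKK-1 lower, the 6 furthest from a compound on each side are named. Their contrasts were those of Amigo3 (3.49), Cptp (3.23), Gmppb (3.21), Pkp2 (2.55), Fam228a (2.42) and Tmem97 (2.36) with DKK-1 higher. Fam228a passed the level filter through its Ad.DKK-1 array. With DKK-1 lower they were Mdk (−2.32), Adh1c (−2.22), Sat2 (−2.01), Bdh2 (−1.88), Tnfrsf21 (−1.78) and Uap1l1 (−1.74). The list for ER folding and degradation had its DKK-1 median on the opposite side of 0 from both compounds, with a median contrast of 1.18. Probe sets without a single gene symbol were also counted: of 11896, 6479 passed the level limit, and 793 were higher and 834 lower in the contrast. This was 25.1% past 1.5-fold, against 12.7% between the vehicles. For named genes the shares were 28.7% and 7.64%. The contrast joins all 6 arrays and the vehicle difference only the vehicle arrays, so these shares are unlike measures.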

How the results depend on the processing

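Counts of genes higher and lower in the contrast (1201 and 1679) and apart from both compounds on either side (689 and 918) stayed within 1.5 times under every change of scale, probe set rule, compound or control that was run. They became 2001, 2661, 1180 and 1514 with no level filter, 772, 1062, 445 and 562 with the lowest 50% of gene means left out, 351, 453, 199 and 224 at a limit of 2-fold, and 350, 388, 203 and 215 in the highest of 3 groups by mean level, an alternative chosen after seeing the data. These settings change the number of genes counted by construction. The limma count of 46 became 10 without a trend, 8 after centring, 24 after quantile normalization and 8 after cyclic loess. With the mean of the vehicles as control of Ad.DKK-1, the contrast turned for Epcam (−1.02), Ifit3 (0.22), Isg15 (0.65), Myc (−0.79), Nkd1 (0.01), Ptgs2 (−0.23), Rgs5 (0.22), Stc2 (−0.27) and Vcam1 (0.79). Under that control another 31 of the 167 named genes past the filter were weaker and 3 stronger. Against FJ9 alone the contrast turned for Axin2 (0.58), Isg15 (0.39) and Loxl1 (0.06), and against ICG-001 alone for Ccnd1 (−0.80) and Lmod1 (−0.34). The cause was not tested. No named gene turned under the scaling alternatives. No paired analysis was possible because each group holds 1 array and the labels give no replicate numbers; the arrays were matched only as a treatment and its control. No replicate could be left out of a group, and a compound or a vehicle was left out as given above.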
